A study of Saccharomyces cerevisiae with 49 samples.

Results

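Budding yeast released from arrest by mating pheromone were followed through 3 consecutive cell cycles, and arrays 50 min apart were compared. The arrays were taken by the time given in their labels, with 10, 20, 30, 40 and 50 min as the first cycle, 60 to 100 min as the second and 110 to 150 min as the third. These 15 arrays, 5 in each cycle, are part of 49 in the series. All 15 came from 1 culture of BY4741 bar1-, a laboratory strain of mating type a without the pheromone protease Bar1. Per the labels, alpha factor at 1 ug/ml held the culture for 3 h, after which the cells were filtered, rinsed with water and moved to fresh rich YPD medium with a supplement that the labels do not name. Each value is the log2 ratio of messenger RNA from the released cells (Cy5) to messenger RNA of unarrested mid-log cells of the same strain (Cy3), with the log base taken as 2 because the deposited table does not state it. The deletion and the reference RNA are therefore common to all 3 cycles. Because there was 1 culture, the p-values below measure the spread between positions within that culture and not between cultures.

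Alpha factor binds a receptor on cells of mating type a and drives a kinase cascade that switches on mating genes and blocks the G1 cyclin-dependent kinase. On release, G1 cyclins and the factors SBF and MBF open S phase, histone genes follow, the CLB2 cluster carries cells into mitosis, and a wave of M/G1 genes then dissolves the wall between mother and daughter. Cells released from the arrest enter S phase without having just divided, whereas cells in later cycles come from a mitosis. Cells of 1 culture also drift apart in timing. In RNA from a whole culture a smaller change in each cell and a looser alignment of the cells cannot be told apart.

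The 15 arrays held values for 4570 to 6080 of 6228 features, and the 70 and 20 min arrays held the fewest, with 4570 and 5145. AGA1, a mating adhesin gene chosen for this check after its values were seen, stood at 5.37 in the arrested culture at 0 min and at 1.09 at 10 min, which fits the labelled direction of the ratio. Among the markers of mating type a, STE2 and BAR1 had no value on these arrays, while MFA1 had a log2 ratio of 3.03 at 0 min. Of 4 alpha-cell markers 1 was tested, SAG1, and it lay between -0.45 and 0.13. Of 5 tested meiosis markers 1 passed the level test described below (SPS1, lower later by a log2 difference of 0.37), beside 4.06% of all features that were lower. Of the 5 stationary-phase markers on the arrays 2 were tested and 1 was lower, beside the same 4.06%. This was SPG5, with mean log2 ratios of 1.42, 1.00 and 0.68 in the 3 cycles. Their part in the other results was not tested.

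A cosine wave with a period of 54 min described the cell-cycle marker genes best across the 15 arrays, and 1223 of 5325 tested features were periodic at an adjusted p under 0.05. Arrays 50 min apart resembled each other more than arrays at any other spacing, with a median Pearson correlation across 4390 features of 0.707 (range 0.542 to 0.849, 10 pairs of arrays), against 0.245 at 30 min and 0.23 at 80 min. These are correlations across genes of shared libraries and are given as a description. Fitted peaks of 32 periodic G1/S genes lay a median of 54.6 min apart between the first and second cycles and 50.4 min apart between the second and the third. For 9 histone genes the intervals were 52.8 and 51.9 min, and for 18 M/G1 genes 59.9 and 54.4 min. An array of the second cycle thus stood earlier in the wave than its partner of the first cycle, 50 min before. The offset was a few minutes for G1/S and histone genes and larger for M/G1 genes. In these lists the median interval from the second to the third cycle was also above 50 min, though barely so for G1/S genes (SD over genes 1.54). For 14 S/G2 genes the intervals were 54.9 and 52.9 min, and for 8 licensing genes 55.7 and 53.1 min. For 19 G2/M genes they were 55.6 and 49.2 min, so the offset did not grow further in every list. Pairing by time did not remove the offset, and its part in the level differences below was not tested.

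Released cells were farther from mid-log RNA in the first cycle than later. Distance was taken as the root mean square of the log2 ratios over the 4390 features measured on all 15 arrays. It was 0.621, 0.583, 0.553, 0.511 and 0.482 at 10, 20, 30, 40 and 50 min. In the second cycle it was 0.492, 0.515, 0.46, 0.506 and 0.434, and in the third 0.418, 0.469, 0.425, 0.458 and 0.414. Every array of the first cycle lay above its partners in both later cycles, and every array of the second above its partner in the third.

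**Figure D1:**
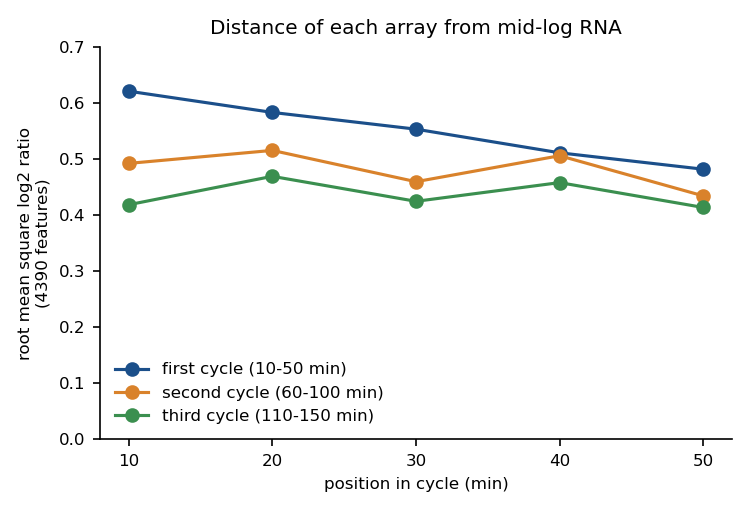
Root mean square log2 ratio to mid-log RNA (vertical axis, over 4390 features) against position in the cycle in minutes, with 1 point for each of the 15 arrays and 1 line for each cycle. The first cycle runs from 0.621 at 10 min to 0.482 at 50 min, and the third cycle lies between 0.414 and 0.469.

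The mean distance was 0.55 ± 0.0555 in the first cycle, 0.481 ± 0.0338 in the second and 0.437 ± 0.0251 in the third (SD, n = 5 arrays each). The later cycles averaged 0.091 less than the first (SD of the paired differences 0.0522, lower at 5 of 5 positions), and the exact two-sided sign-flip permutation test over 5 positions gave p = 0.063, the smallest it can give. The third cycle lay below the second by 0.0448 (SD 0.0196, 5 of 5 positions), again with an exact permutation p of 0.063. With the median absolute log2 ratio in place of the root mean square, the 2 differences were only -0.01421 (exact permutation p = 0.3125) and -0.0001093 (p = 1), so the change lay in the features with large ratios. At the 10 min position 385, 213 and 115 features lay at least 2-fold from mid-log in the 3 cycles, and at the 50 min position 187, 160 and 117 did.

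The gap between neighbouring cycles was also uneven over the positions. The root mean square difference between matched arrays of the first and second cycles was 0.492, 0.476, 0.493, 0.411 and 0.291 at the 5 positions in order. Between the second and the third it was 0.261, 0.403, 0.295, 0.352 and 0.25. The arrays at 50 and 100 min thus differed less than the earlier pairs of those cycles, and 60 and 110 min differed less than 10 and 60 min.

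The mean level of each feature in the later cycles was then set against the first cycle with limma, with the 5 positions as pairs and Benjamini-Hochberg adjustment over 5325 features. At an adjusted p under 0.05, 505 features differed (9.48% of those tested), of which 289 were higher later (5.43%) and 216 lower (4.06%). The median difference among the higher was 0.44 on the log2 scale and among the lower -0.46. The first-cycle mean was below mid-log for 211 of the 289 and above mid-log for 186 of the 216. These counts lean that way by construction, because the first-cycle values also entered the call. By size, the first-cycle mean was farther from mid-log than the mean of the later cycles in 258 of the 505. Of the 505, 467 carried a gene symbol. At all 5 positions 228 of the higher features were above and 187 of the lower features were below the first cycle. The median over all tested features was 0.00.

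The number of calls rested on single arrays. Omission of the 10 min array gave 826 calls, of the 20 min array 115, of the 30 min array 62 and of the 40 min array 261. Among arrays of the second cycle, omission of 60 min gave 303, of 70 min 299, of 80 min 213 and of 100 min 289. In the third cycle 120 min gave 328, 130 min 235 and 140 min 264. Of 50 called genes named by rule, 8 stayed past the threshold under all 30 alternatives, and these were CTS1, DSE1, DSE2, SCW11, GPD2, PCL5, SPG5 and SSE1. Another 16 lost the call under 1 to 5 alternatives and 26 under more, with 38 lost without the 30 min position, 33 without the 30 min array alone and 32 without the 20 min position.

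M/G1 genes, whose products split the septum and set up the daughter cell, differed most. Of 19 tested members 14 were higher in the later cycles and 0 lower, beside 5.43% and 4.06% of all features, and 17 had an unadjusted p under 0.05. The median of the members' mean log2 ratios was -2.30 in the first cycle, -0.71 in the second and -0.16 in the third, and the median difference was 1.94. Omission of the 30 min array left 4 calls, of the 20 min array 6 and of the 80, 130 or 140 min array 9, and quantile normalization gave 7 with a median difference of 1.05.

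**Figure D2:**
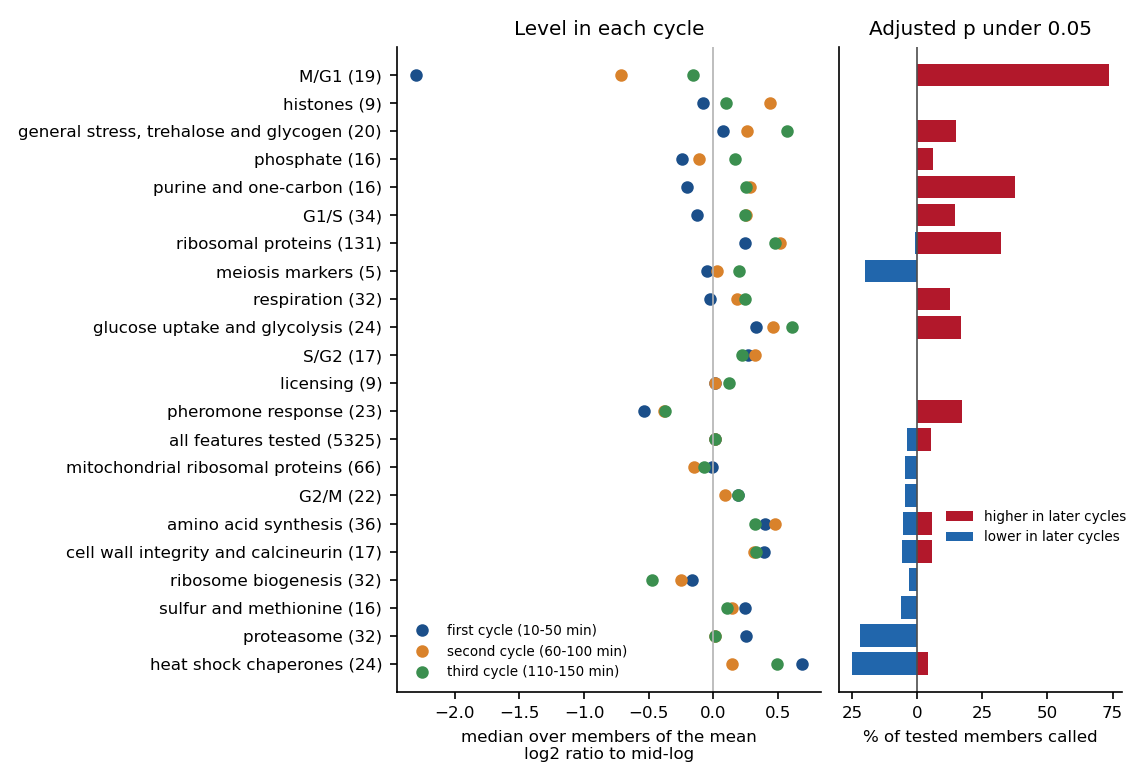
Left, the median over the tested members of each gene list (number in brackets) of their mean log2 ratio to mid-log, with 1 point for each cycle. Right, the percentage of tested members past an adjusted p of 0.05, higher (right of 0) or lower (left of 0) in the later cycles; M/G1 genes stand at -2.30, -0.71 and -0.16 with 14 of 19 called.

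Within this group DSE1, CTS1, DSE2 and SCW11 stayed low on all 5 arrays of the first cycle. DSE1 (YER124C), named for its expression in daughter cells, had log2 ratios of -3.87, -4.62, -4.36, -4.24 and -4.28 at 10, 20, 30, 40 and 50 min. At 60 to 100 min it had 0.62, -0.84, -1.20, -2.95 and -2.34, and at 110 to 150 min 0.65, 0.36, -0.43, -1.40 and -1.76. The first cycle therefore did not overlap the later ones, and the step up lay between the arrays at 50 and 60 min. The level difference was 3.34 ± 0.32 (SE, limma adjusted p = 0.000277).

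CTS1 (YLR286C), the chitinase that cuts the septum, followed the same course. Its first cycle ran from -4.61 to -3.37, its second from -2.79 to 0.48 and the third from -1.45 to 0.48. The difference was 3.33 ± 0.30 (adjusted p = 0.000225), and CTS1 had been at -1.58 in the arrested culture, higher than on any of the 5 arrays that followed. DSE2, another daughter-expressed wall gene, moved from a first-cycle range of -3.95 to -2.59 to a range of -2.75 to 0.62 later, with an overlap only at 10 and 90 min (difference 2.60 ± 0.22, adjusted p = 0.000168). SCW11, a glucanase-like wall gene, was at -2.60 at 50 min and 1.21 at 60 min, with a difference of 2.64 ± 0.38 (adjusted p = 0.00336).

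Other members had already come up by 50 min, among them DSE4, a septum glucanase, at -2.84 at 40 min and -0.49 at 50 min. PCL9 (YDL179W), a cyclin of the Pho85 kinase, was at -2.85, -3.07, -3.69, -2.38 and 1.22 in the first cycle, and at 1.09, -0.82, -1.20, -1.80 and 0.42 in the second. In the third it was at 1.15, 0.78, -0.70, -1.10 and 0.06. At 50 min it was thus above both of its partners while the other 4 positions were below theirs, and the level difference was 1.94 ± 0.53 (adjusted p = 0.0405). EGT2, a wall gene of cell separation, was at -5.11 at 30 min and -0.52 at 50 min, and at 1.24 and 1.02 at 60 and 110 min (difference 2.90 ± 0.63, adjusted p = 0.0183). RME1, a repressor of meiosis, was at -5.29 at 30 min against -1.10 at 80 min and -0.34 at 130 min (difference 2.77 ± 0.53, adjusted p = 0.013). SIC1, the inhibitor of the S-phase kinase, and ASH1, a repressor acting in daughters, had differences whose adjusted p was 0.15 and 0.197, and they stood at 0.60 and 1.78 at 50 min.

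**Figure D3:**
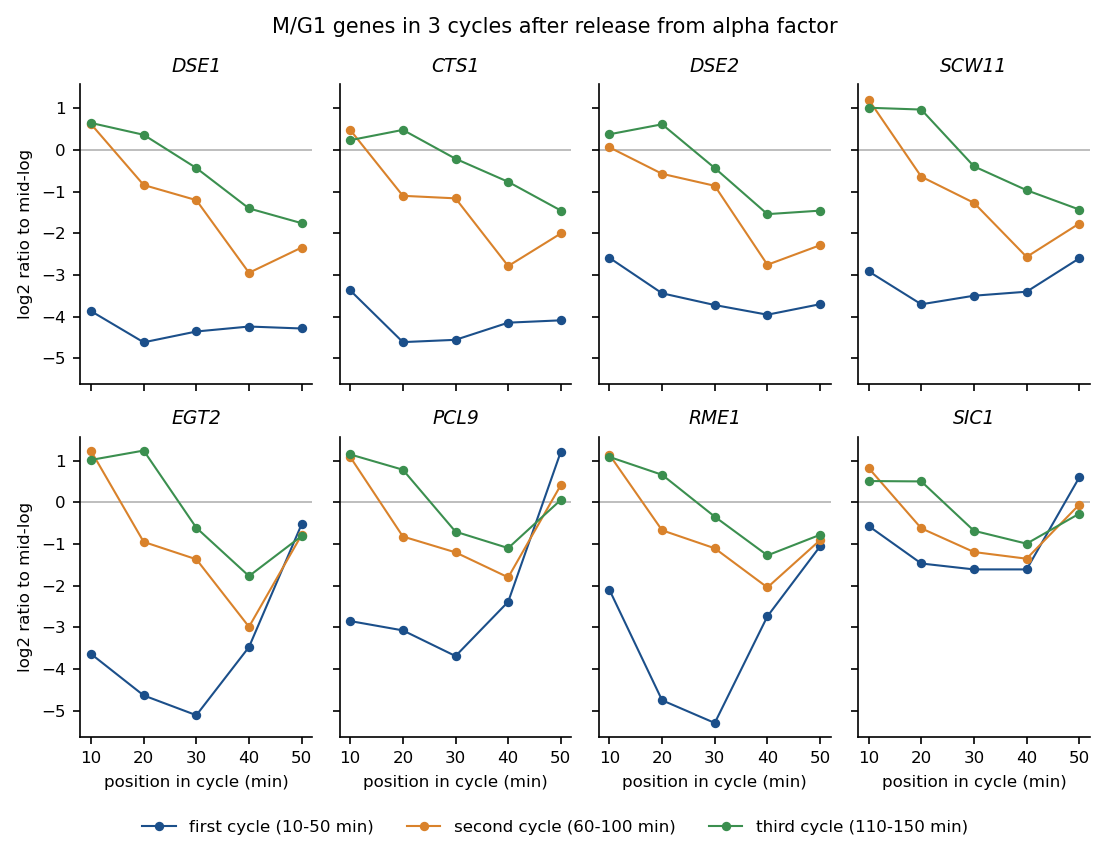
Log2 ratio to mid-log (vertical axis) of 8 M/G1 genes against position in the cycle in minutes, with 1 line for each cycle and 1 point for each array. DSE1, CTS1, DSE2 and SCW11 stay at or below -2.59 on all 5 first-cycle arrays, while EGT2, PCL9, RME1 and SIC1 climb by 50 min, PCL9 to 1.22.

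Of 34 tested G1/S genes 5 were higher later and 0 lower, beside 5.43% and 4.06% of all features, with a median difference of 0.34 and 31 differences above 0. The median log2 ratio of the list was 1.71 at 10 min, against 1.41 at 60 min and 0.94 at 110 min, so the first cycle opened above the later ones. At 40 min it was -1.28, against -0.52 at 90 min and -0.38 at 140 min. CLN2 (YPL256C), the G1 cyclin gene, had 2.80, -0.05, -0.83, -2.11 and -1.99 in the first cycle, then 2.19, 1.95, 1.89, -0.16 and -0.72, then 2.45, 2.15, 1.16, 0.45 and -0.25. It was highest of the 3 cycles at 10 min and lowest at the other 4 positions, and its difference was 1.55 ± 0.32 (adjusted p = 0.0157). The other 4 were SVS1 (1.36), AXL2, a landmark of axial budding (1.17), SWE1, a kinase that restrains mitosis (0.73), and POL2, a replicative polymerase (0.54).

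**Figure D4:**
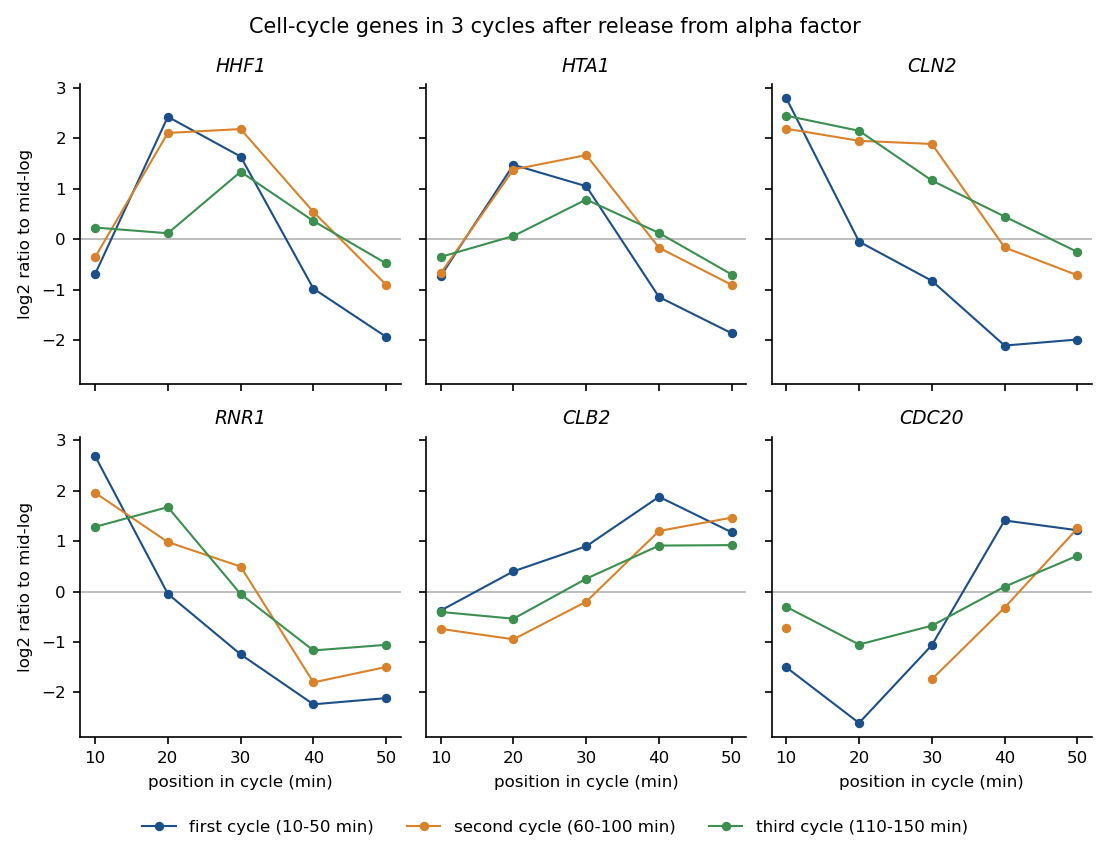
Log2 ratio to mid-log (vertical axis) of 2 histone genes (HHF1, HTA1), 2 G1/S genes (CLN2, RNR1) and 2 mitotic genes (CLB2, CDC20) against position in the cycle in minutes, with 1 line for each cycle. The peak of HHF1 is 2.43 in the first cycle and 1.34 in the third; CDC20 has no value at 70 min.

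The calls among G1/S genes ranged from 0 to 17 over the 30 alternatives, with a median difference between 0.241 and 0.584. There were 16 without the 10 min array, 2 without the 70, 80, 130 or 140 min array, and 0 without the 20, 30 or 40 min array. Mitotic genes differed less in level. Of 22 tested G2/M genes 1 was lower later, the B cyclin gene CLB2 (YPR119W), and 0 were higher. This is near the 4.06% lower and 5.43% higher of all features, so the count sets no G2/M group apart. CLB2 had -0.38, 0.40, 0.90, 1.88 and 1.18 in the first cycle, -0.74, -0.95, -0.20, 1.20 and 1.47 in the second, and -0.40, -0.54, 0.26, 0.91 and 0.92 in the third. The first cycle was clearly above both partners at 20, 30 and 40 min, and the difference was -0.60 ± 0.17 (adjusted p = 0.047, lost under 18 of 30 alternatives). None of 9 histone, 17 S/G2 or 9 licensing genes passed, beside 9.48% of all features. At an unadjusted p under 0.05 there were 1, 2 and 1, beside 1548 of all 5325 features.

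A few genes of the pheromone response lay below mid-log in the first cycle and nearer to it later. Of 23 tested members 4 were higher later and 0 lower, beside 5.43% and 4.06% of all features, and the median difference over the list was 0.01. SST2 (YLR452C), which turns off the receptor's G protein, was at 1.36 in the arrested culture and at -1.70, -2.02, -2.09, -2.02 and -1.53 at 10 to 50 min. It was at -1.33, -0.97, -0.76, -1.64 and -0.78 in the second cycle and at -0.79, -0.89, -0.55, -1.12 and -0.50 in the third. The later arrays were above their first-cycle partners at all 5 positions (0.94 ± 0.11, adjusted p = 0.00142).

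FUS1, a cell fusion gene, went from 2.05 at 0 min to between -1.95 and -0.67 in the first cycle and between -1.30 and -0.04 later. Its difference was 0.81 ± 0.17 (adjusted p = 0.019, with no value at 70 min). The remaining calls were FUS3, the kinase of the pathway (0.65), and STE12, its transcription factor (0.54), both higher later at 5 of 5 positions. Without the 20 or the 30 min array the list had 1 call, and without the 10 or the 50 min array there were 6. AGA1 was between -1.57 and -0.77 on all arrays from 20 min on, with no such return. The mating gene FIG1, also singled out after its values were seen, was at 3.79 at 10 min and had values on too few arrays for a test.

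Genes of growth and metabolism differed by smaller amounts. Of 131 tested ribosomal protein genes 42 were higher later and 1 lower (RPL32), beside 5.43% and 4.06% of all features, with a median difference of 0.30 and 126 differences above 0. The median of their mean log2 ratios was 0.24 in the first cycle, 0.52 in the second and 0.48 in the third. RPS20 (YHL015W) had 0.56, 0.54, 0.48, 1.14 and 1.16 at 10 to 50 min and then between 1.25 and 1.69 on all 10 later arrays, so that the 2 sets did not overlap (0.63 ± 0.10, adjusted p = 0.00624). RPL9B had a difference of 0.67 ± 0.14 (adjusted p = 0.0153). Many ribosomal protein genes, RPL9B among them, have a near-identical copy that a printed probe may not tell apart. The count of higher members was 7 without the 20 min array, 3 without the 30 min array and between 13 and 25 without the 60, 70, 80, 100, 120, 130 or 140 min array. Over all 30 alternatives it ranged from 0 without the 30 min position to 63 with a cosine and sine in place of positions, while the median difference stayed between 0.256 and 0.329.

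Purine and glycine cleavage genes were higher later for 6 of 16 tested and lower for 0, beside 5.43% and 4.06% of all features (median difference 0.35). ADE17 (YMR120C), of the last steps of purine synthesis, had -1.85, -3.18, -2.78, 0.90 and 0.94 in the first cycle. The second gave 0.18, -1.12, -0.37, 1.95 and 0.83, and the third 0.03, -0.96, 0.80, 1.18 and 1.21. The first 4 positions were below both of their partners, the first 3 by the most, and the 50 min array lay between its partners (1.57 ± 0.34, adjusted p = 0.0186). GCV1, of the glycine cleavage system, had a difference of 0.78 ± 0.17 (adjusted p = 0.0193). This count was 2 without the 20 min array and 0 without the 30 min array.

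The general stress, trehalose and glycogen list had 3 of 20 tested members higher, GSY2 and GSY1 (both glycogen synthases) and HXK1 (a hexokinase), and 0 lower, beside 5.43% and 4.06% of all features. GSY2 (YLR258W) was at 0.81 at 10 min, between -1.77 and -0.70 at 20 to 50 min, at 1.59, 0.92, 0.56, -0.47 and -0.44 in the second cycle and between 0.24 and 1.59 in the third (1.67 ± 0.27, adjusted p = 0.00624). Respiration genes had 4 of 32 higher and 0 lower, beside the same shares. COX4, a subunit of cytochrome oxidase, was at -0.71 ± 0.32, -0.32 ± 0.11 and 0.12 ± 0.11 in the 3 cycles (mean ± SD, n = 5 each) and had a difference of 0.61 ± 0.12 (adjusted p = 0.0128). Its 10 min array, at -0.15, stood above the other 4 of the first cycle.

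Of 24 tested genes of glucose uptake and glycolysis 4 were higher (5.43% of all features) and 0 lower (4.06%), led by HXT4, a hexose transporter (0.59 ± 0.13, adjusted p = 0.0212), and ADH1, the main alcohol dehydrogenase (0.44 ± 0.11, adjusted p = 0.0295). Of 36 amino acid synthesis genes 2 were higher, HIS4 (0.81) and HIS1 (0.50), and 2 lower, LYS1 (-0.76) and ARG1 (-0.64), which is near the 5.43% and 4.06% of all features. PHO81, an inhibitor of the Pho85 kinase in phosphate signalling, was the single call among 16 phosphate genes, near the 5.43% of all features. It lay between -2.51 and -1.62 on the first-cycle arrays and between -1.94 and 0.12 later, where only the 90 min array reached the first-cycle range (1.52 ± 0.25, adjusted p = 0.00762). Of 17 cell wall integrity and calcineurin genes PST1 was higher (1.60) and GSC2, a glucan synthase, lower (-0.81), near the 5.43% and 4.06% of all features. The counts of these small sets also moved with the array left out, and without the 30 min array 1 stress, 0 respiration and 0 glucose genes were called. Without the 10 min array these were 9, 14 and 5. The single calls in ribosome biogenesis (NUG1, 32 tested) and in sulfur metabolism (CYS3, 16 tested) were lower, as were 3 of 66 mitochondrial ribosomal protein genes, all near the 4.06% of all features. The lower calls in ribosome biogenesis ranged from 0 to 12 over the alternatives, with 12 without the 10 min array, 3 without the 50 min array and 2 without the 110 or 150 min array. They were 0 without any other single array.

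Proteasome and chaperone genes were among those lower in the later cycles. Of 32 tested proteasome genes 7 were lower later and 0 higher, beside 4.06% and 5.43% of all features, with a median difference of -0.27 and 0 differences above 0. PRE2 (YPR103W), a catalytic core subunit, had 0.23, -0.11, 0.08, 0.70 and -0.28 in the first cycle, -0.44, -0.91, -0.54, -0.02 and -0.26 in the second and -0.78, -0.49, -0.50, -0.39 and -0.45 in the third. The later values averaged below the first-cycle value at all 5 positions (-0.60 ± 0.13, adjusted p = 0.0157). RPN10, a ubiquitin receptor of the regulatory cap, had a difference of -0.64 ± 0.16 (adjusted p = 0.035). The count was 3 without the 20 or 40 min array, 1 without the 30 min array and 11 without the 120 min array, and the median difference stayed between -0.308 and -0.202.

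Of 24 tested heat shock chaperone genes 6 were lower later and 1 higher, SSB1, a ribosome-bound chaperone (0.45), beside 4.06% and 5.43% of all features. The median of the members' mean log2 ratios was 0.69, 0.15 and 0.49 in the 3 cycles. The third cycle was above the second in 22 of 24, with a median difference of 0.37, 8 at an unadjusted p under 0.05 and 0 past adjustment. SSE1 (YPL106C), an exchange factor of the Hsp70 chaperones, had 0.87, 0.83, 0.71, 0.97 and 0.41 in the first cycle and between -0.18 and 0.35 on all 10 later arrays, so that the 2 sets did not overlap (-0.69 ± 0.12, adjusted p = 0.00762). CPR6, a co-chaperone of Hsp90, had 1.36 at 10 min, -0.13 at 50 min and a difference of -0.62 ± 0.16 (adjusted p = 0.0372). The 6 lower calls became 1 without the 20 or 30 min array and 3 without the 40, 80, 130 or 140 min array.

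The other large differences lay mostly in genes outside these lists. NFG1 was higher later by 2.00 ± 0.30 (adjusted p = 0.00442), with means of -0.45, 1.50 and 1.61. Among genes lower later, GPD2 (YOL059W), a glycerol 3-phosphate dehydrogenase, had 0.45, 0.61, 0.90, 0.81 and -0.04 in the first cycle and lay between -1.19 and -0.02 on the 10 later arrays (-1.19 ± 0.17, adjusted p = 0.00304). PCL5 (YHR071W), a cyclin of the Pho85 kinase, had 1.77, 1.72, 1.57, 1.04 and -0.02 in the first cycle and between -0.49 and 0.53 later (-1.18 ± 0.18, adjusted p = 0.00438). In both genes the 50 min array was the lowest of the first cycle and overlapped the later arrays. BIO2, the biotin synthase gene, had means of 1.02, 0.14 and -0.29 in the 3 cycles (-1.09 ± 0.12, adjusted p = 0.000401). NCE103, the carbonic anhydrase gene, had means of 0.88, -0.57 and -0.34 (-1.34 ± 0.31, adjusted p = 0.0245). The largest of the lower calls was YPL088W, at -1.51 ± 0.28 (adjusted p = 0.0143).

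The third cycle was not separable from the second by level. Of 5325 features 0 passed with limma (0% higher and 0% lower), and 283 had an unadjusted p under 0.05. Of the 505 features that differed between the first and later cycles, 409 had a mean in the third cycle farther along in the same direction than in the second. This share was not computed over all tested features, so it cannot be read as particular to the called ones. Higher in the third cycle than in the second were 22 of 24 chaperone and 45 of 131 ribosomal protein genes, beside 46.5% of all features. The median differences were 0.371 and -0.0301, with 8 and 2 members at an unadjusted p under 0.05. Second-cycle values enter the step from the first cycle and the step to the third with opposite signs. Opposite directions of the 2 steps are therefore favoured by construction, and no return is read from these counts. All 19 tested M/G1 genes were higher in the third cycle than in the second, with a median difference of 0.57 and 3 at an unadjusted p under 0.05. CTS1 differed by 0.97 and DSE1 by 0.83 (adjusted p = 0.833 for both).

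Loss of amplitude was measured as the swing, the size of a cosine and sine wave of 54 min fitted in each cycle along the gene's own common phase, in log2 units from mean to peak. The median swing of the 1223 periodic features was 0.552, 0.441 and 0.298 in the 3 cycles, and that of all 5325 was 0.223, 0.17 and 0.11. The later swing was below the first in 83.2% of periodic features (1017) and 71.5% of all. The share of all features fell to 63% without the 10 min array and to 55.3% without the 10 min position. The swing of the third cycle was below that of the second in 80.2% of periodic features (981) and 67.1% of all. In 631 periodic features it was smaller at both steps. The periodic call used the mean wave of the 3 cycles, so a large first-cycle wave alone could carry a feature past it. Since genes of 1 culture are not independent, these shares carry no test.

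Gene by gene the losses were rarely separable from the residual spread. For the later against the first cycle 2 of 5325 features passed the moderated test (0.0376%), both with a smaller later swing (0.0376%) and 0% with a larger, and 479 had an unadjusted p under 0.05. Omission of the 20 min array raised this count to 61, of the 50 min array to 28, of the 70 min array to 11 and of the 40 min array to 5. The later swing was larger in 5 of the 11 and in 1 of the 28, and smaller in all the others. Omission of any other single array from 60 min on gave 0. For the third against the second cycle 0 passed (0% smaller and 0% larger), with 203 at an unadjusted p under 0.05.

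**Figure D5:**
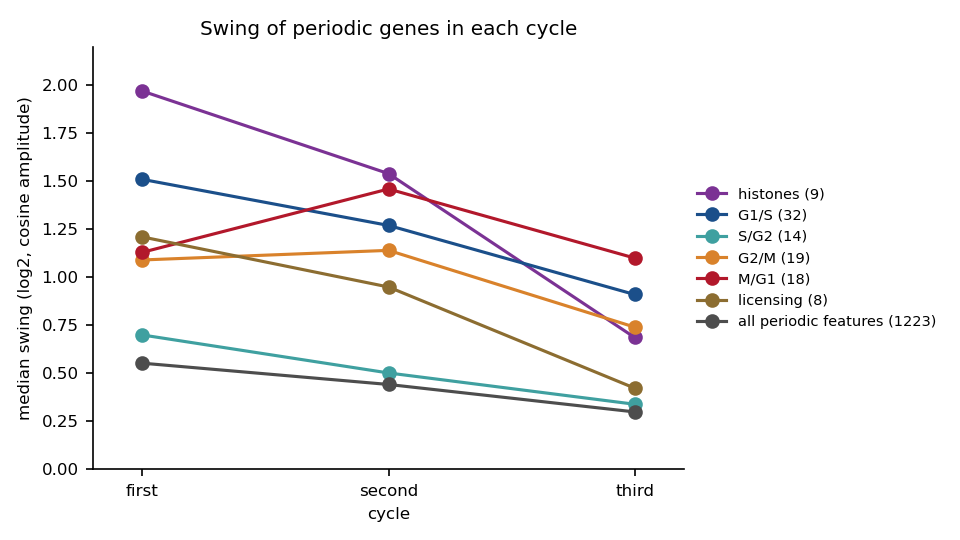
Median swing over the periodic members of 6 cell-cycle gene lists and over all 1223 periodic features (vertical axis, log2 units from mean to peak) in the 3 cycles, with the number of genes in brackets. Histones go from 1.97 to 0.686, while M/G1 genes have 1.13, 1.46 and 1.1.

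Histone genes had the largest drop in median swing among the 6 cell-cycle lists. All 9 had a smaller swing later and a smaller swing in the third cycle than in the second, with medians of 1.97, 1.54 and 0.686. At an unadjusted p under 0.05 there were 9 and 8 of them for the 2 steps, beside 479 and 203 of all 5325 features, though 0 passed after adjustment. Most of the 9 come in pairs of similar genes, such as HTA1 and HTA2, that a printed probe may not tell apart. HHF1 (YBR009C), for histone H4, had -0.70, 2.43, 1.64, -0.98 and -1.94 in the first cycle, -0.36, 2.11, 2.18, 0.54 and -0.91 in the second and 0.23, 0.12, 1.34, 0.36 and -0.48 in the third. The peak of the third cycle was lower and its trough higher than in both others. The swing of HHF1 was 2.30, 1.84 and 0.69, a difference of -1.04 ± 0.29 for the later cycles (adjusted p = 0.262). HTA1, for histone H2A, had swings of 1.80, 1.52 and 0.70.

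Both ends of the wave drew in toward mid-log in the histones and G1/S genes. The median highest value of the 9 histone genes was 1.81, 1.84 and 1.01 in the 3 cycles, and the median lowest value was -1.94, -0.906 and -0.483. For the 32 periodic G1/S genes the highest was 1.79, 1.55 and 1.21 and the lowest -1.49, -1.03 and -0.555. From the first to the third cycle the highest value was lower in 30 of these 32 and the lowest was higher in 31. Over all 1223 periodic features these counts were 920 and 908. The median swing of G1/S genes was 1.51, 1.27 and 0.91. RNR1, the large subunit of ribonucleotide reductase, had swings of 2.24, 1.84 and 1.49. CLB6, an S-phase cyclin gene, had 3.11, 1.50 and 1.40 (later minus first -1.66 ± 0.53, adjusted p = 0.36). It was at 4.20 at 10 min and had no value at 20 min. Its swing difference ranged from -2.41 to 0.677 over 29 alternatives.

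Mitotic genes had a median swing in the second cycle close to that of the first. The 19 periodic G2/M genes had medians of 1.09, 1.14 and 0.74, and 18 of them swung less in the third cycle than in the second. CLB2 had swings of 1.00, 1.30 and 0.76, and the step from the second to the third was -0.54 ± 0.19 (unadjusted p = 0.013, 0 features past adjustment). CDC20, the activator of anaphase, had 2.13, 1.68 and 0.78, with a difference of -0.90 ± 0.16 for the later cycles (adjusted p = 0.138). The swings of SWI5, a transcription factor of late mitosis, were 1.63, 1.66 and 0.99. The 8 periodic licensing genes, for loading of the replicative helicase and for early G1, had 1.21, 0.949 and 0.422. S/G2 genes had 0.699, 0.501 and 0.338 (14 genes).

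In M/G1 genes the order differed, with a median swing of 1.13, 1.46 and 1.1 over 18 periodic members, of which 10 swung less later. Their median highest value was -0.421, 1.1 and 0.9 and their median lowest -3.52, -2.34 and -1.21, so the lowest value was higher in the third cycle than in the first in all 18 while the highest was lower in 5. CTS1 had swings of 0.43, 1.32 and 0.88 (later minus first 0.67 ± 0.32, adjusted p = 0.571) and EGT2 1.84, 1.67 and 1.42. The median highest value of M/G1 genes in the first cycle is bounded by the end of that cycle at 50 min, before genes such as CTS1 came up.

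Some genes outside the cell-cycle lists also had larger swings in the first cycle than afterwards. A swing does not tell a one-way change after release from a wave, and the part of such changes was not tested. The median log2 ratio of the stress list was 1.44 at 0 min, 1.03 at 10 min, -0.361 at 20 min and -0.573 at 30 min. The 14 periodic genes of the general stress, trehalose and glycogen list had median swings of 1.15, 0.316 and 0.335. The 8 periodic phosphate genes had 1.95, 0.865 and 0.423, and the 12 of sulfur metabolism 0.986, 0.552 and 0.442. Over all tested members the medians were 0.856, 0.267 and 0.283 (20 stress genes) and 0.598, 0.427 and 0.155 (16 phosphate genes). For the 16 tested sulfur genes they were 0.764, 0.471 and 0.35. The phosphatase gene PHO5, named after its values were seen, was at -2.02, -2.69, -2.24, 1.08 and 1.97 in the first cycle and at 0.23, -0.38, -0.30, 0.50 and 1.46 in the third. Its first cycle began far lower than the third and ended above it.

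The 2 features that passed the swing test had uneven first cycles. NQM1 (YGR043C), a transaldolase gene, had 2.83, 2.58, 1.34, 0.59 and 0.63 at 10 to 50 min, between 0.07 and 0.61 in the second cycle with no value at 70 min, and between 0.18 and 0.51 in the third. It had been at 3.01 in the arrested culture, and its swing was 1.23, 0.12 and 0.07 (-1.13 ± 0.16, adjusted p = 0.0484). FIT1 (YDR534C), a wall mannoprotein of iron uptake, was at -1.31, -1.49, 0.16 and -0.35 at the 4 measured times of the first cycle and between -0.84 and -0.14 later (swing difference -1.09 ± 0.15, adjusted p = 0.0484). FIT1 was not among the periodic features. The 2 calls were lost under 19 and 24 of 29 alternatives.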

How the data were processed

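Per the labels, Cy5-labelled RNA of the released culture and Cy3-labelled mid-log RNA shared each printed oligonucleotide array. The authors deposited 1 log ratio per probe and array, read here as log2 of Cy5 over Cy3. Its base and centring are not stated in the table. The scanner and the normalization used to make the values were not given in the sources used here. Of 6258 probes, 5570 carried 1 gene symbol in the platform annotation. Probes of 29 genes were averaged, which gave 6228 features, and RefSeq supplied the locus tags.

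Each array was centred on its median. Features with values on at least 12 of 15 arrays and 4 of 5 in each cycle were tested (5325). Level was fitted with limma 3.58.1 in R 4.3.3, with contrasts for the mean of the 2 later cycles minus the first and for the third minus the second, and position as a block (8 residual and 4.64 prior degrees of freedom). Positions pair the arrays by time, not by a shared animal or batch. Array numbers in the labels rose with the cycle, at 75 to 80 in the first, 81 to 84 in the second and 84 to 87 in the third. Cycle therefore cannot be told apart from array number or from time in the fresh medium, and array number as a random block does not separate them. Swing was fitted as cosine and sine terms in each cycle (6 residual degrees of freedom, moderated with limma). Two-sided p-values were adjusted by Benjamini-Hochberg over 5325 features and called at an adjusted p under 0.05. Differences in level and swing carry standard errors. Both fits were tested on simulated data. The planted level changes were larger than most called here, with independent noise and no drift in timing. The simulation therefore does not measure how the fits perform on these arrays. The precision is limited by the number of arrays.

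The rule named the 10 largest level differences each way, the 2 largest called members of each of 25 lists, swing calls and a core list of cell cycle genes. The members and lists were chosen with earlier results of these data known. Alternatives covered centring, filters, array letter and number, period, pairing and omission of arrays or positions, and the omission of the 20 and 70 min arrays together was added after seeing the data. The arrays at 0 and 15 min entered no fit.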

Additional observations from a re-analysis of the deposited data

Results flagged for a closer look

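Of 162 groups of 5 arrays examined for a value set apart from the other 4, 10 were marked, and chance alone marks about 5% of such groups. Among the array totals, the 110 min array held 5459 values, fewer than the rest of the third cycle. The median of the deposited log ratios was -0.06902 at 10 min, the lowest of the first cycle, and -0.04287 at 110 min, the lowest of the third.

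Among genes, AMN1 (-1.47) and PCL9 (1.22) stood above the rest of the first cycle at 50 min, when other M/G1 genes also came up. COX4 stood at -0.149 at 10 min, above the other first-cycle arrays. In the third cycle NCE103 (0.507) at 120 min was high, while NUG1 (-0.981) at 120 min, NFG1 (0.322) at 150 min and PRE2 (-0.78) at 110 min were low.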

How the results depend on the processing

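The 505 level calls for the later against the first cycle ranged from 62 to 826 when 1 array at a time was left out. They numbered 215 without the position block (positions not paired), 764 with a cosine and sine in place of positions, 78 without the 20 min position, 37 without the 30 min position, 185 without the 40 min position and 78 without the 20 and 70 min arrays. Under the other settings, such as no centring (486) and array number as a random block (375), they stayed within 1.5 times. The 0 calls for the third against the second cycle became 0 to 1 with 1 array left out and 1 without the 10 min position.

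The 2 swing calls ranged from 0 to 61 with 1 array left out. They became 0 after quantile normalization, with values required on all 15 arrays, without the 50 min position, at a period of 50 min, in the F-test and with a linear trend. They became 4 with at least 3 values per cycle, 1 with array letter as covariate, 1 without the 30 min position, 1 at a period 3 min longer, 29 without the 10 min position, 65 without the 20 min position and 112 without the 20 and 70 min arrays. The share of features with a smaller later swing stayed between 55.3% and 76.4%. The lowest share came without the 10 min position, where the median swing difference was -0.0241, against -0.0897 in the main fit. For the third against the second cycle the 0 calls became 5 without the 10 min position. The distance differences were -0.01421 and -0.0001093 by the median absolute log ratio, and the exact unpaired permutation test, with no block, gave p = 0.00266 and 0.0476. None of the 50 named level calls and 2 swing calls changed sign. Differences short of the threshold did, such as the level of CDC20 (-0.331 to 0.43) and the swing of PCL9 (-1.52 to 0.634), as did the median level difference of the G2/M list (-0.287 to 0.0505) and of the S/G2 list (-0.00889 to 0.144). The causes of these shifts were not tested.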
